A study of Homo sapiens with 2 samples.

Results

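The genes described here encode the effectors and regulators of apoptosis, the cell's own death program. They were chosen by name as a set of 57 genes in 11 classes by role, and a gene was measured when the array's annotation gave its symbol to a probe set. That was so for 38 of the 57, each read by 1 probe set, among 13864 named genes in all. RNA came from 2 stable derivatives of PC3 cells, an androgen-independent line of human prostate cancer without functional p53. One line overexpressed miR-95 and the other overexpressed a control microRNA, and both were grown in DMEM with fetal bovine serum. Whether each line was a clone or a pool, and which promoter drove the microRNA, is not stated in the labels. Each line was hybridised to 1 Affymetrix array. With no replicates there is no error and no test for any difference, and the results describe these 2 arrays.

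In the mitochondrial pathway, BH3-only proteins sense damage and bind the survival proteins of the BCL2 family, which frees BAX and BAK1 to form pores in the outer mitochondrial membrane. Cytochrome c then leaves the mitochondrion and assembles with APAF1 into the apoptosome, which activates caspases, the proteases that take the cell apart. Inhibitor of apoptosis proteins hold caspases in check. A second route starts at death receptors on the cell surface and runs through adaptors such as FADD. Prostate cancer cells often carry high levels of survival proteins, which makes this balance a subject of study in them.

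The microRNA that sets the lines apart has an annotated product from each arm of its hairpin. Both are printed from RefSeq (GRCh38.p14) because they are the agent of the experiment, with the seed (bases 2 to 8, which pair with target messenger RNAs) in capitals. The 3p arm lies at chr4:8005312-8005333 and the 5p arm at chr4:8005347-8005367, both on the minus strand.
hsa-miR-95-3p: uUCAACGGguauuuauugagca
hsa-miR-95-5p: uCAAUAAAugucuguugaauu
The labels do not say which arm was raised. The gene of miR-95 had no named probe set, so its level could not be checked, and target sites were not searched for because no untranslated sequences were used here.

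Values are log2 expression, and pairs are given as deposited. Differences and folds are miR-95 minus control after each array was centred on its median over named genes (7.495 for miR-95 and 7.46 for control), which lowered the miR-95 values by 0.035. A gene below the median of both arrays is called dim. Differences are counted at 1.5-fold and at a lower limit of 25%, which a gene passed when its linear value on one array was at least 25% above that on the other after centring. The arrays were close, with a Pearson correlation of 0.9959 over 23641 probe sets. Over all named genes the robust SD of the difference was 0.163, running from 0.208 in the dimmest of 4 brightness bins of nearly equal size to 0.133 in the brightest. Within the 68 genes that were not dim and had several probe sets, the differences of a gene's probe sets had an SD of 0.132, a guide to measurement disagreement that holds no variation between cultures. The 6 measured epithelial and PC3 markers (KRT8, KRT18, KRT19, EPCAM, VIM and CD44) were at or above the array medians. The 3 measured androgen-responsive genes, KLK2, KLK3 and FOLH1, were dim. Of 7 measured markers of other cell types 6 were dim, and the other, CD68, read 11.56 in the miR-95 line and 11.42 in the control line. The 2 measured fibroblast markers summed to 72.6 on the miR-95 array against 168 on the control array on the linear scale, mostly LUM, and their part in the results was not tested.

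Most apoptosis genes read alike on the arrays, and the few larger differences went both ways. Higher on the miR-95 array past the 25% limit were 3 of 38 (7.89%), namely BCL2A1, BAK1 and BCL2L14, against 3.92% of all named genes. Lower past that limit were 4 of 38 (10.5%), namely PMAIP1, BIK, APAF1 and RIPK3, against 6.32% of all named genes. The remaining 31 lay within the limit. In RNA from whole cultures, fewer cells that express a gene and less of its RNA per cell cannot be told apart. Past 1.5-fold there was 1 member higher (2.63%, against 0.426% of all named genes) and 0 lower (against 0.923%). A single gene is 2.63% of the 38, so each share moves by that much with 1 gene more or less. With the values as deposited the background shares were 5.10% higher and 4.58% lower at the 25% limit. The lower share of all such calls was then 47.3%, against 61.7% after centring.

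By sign, 25 of the 38 members (65.8%) were lower and 13 higher, beside 56.9% of all named genes with a negative difference. Small signs rest on the centring, since with the values as deposited 21 members and 46.7% of all named genes were negative. The median over the members was -0.055 against -0.025 for all named genes, and their robust SDs were 0.156 and 0.163. Of the 38 members 25 were not dim (65.8%), compared with 51.1% of all named genes. BCL2A1 was the 1 member above the median of only the miR-95 array, so it had to differ to count as more than dim. Among the 25 that were not dim, 2 were higher past the 25% limit, as were 3.08% of all genes that were not dim, and 2 were lower past it, as were 5.38%.

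**Figure D1:**
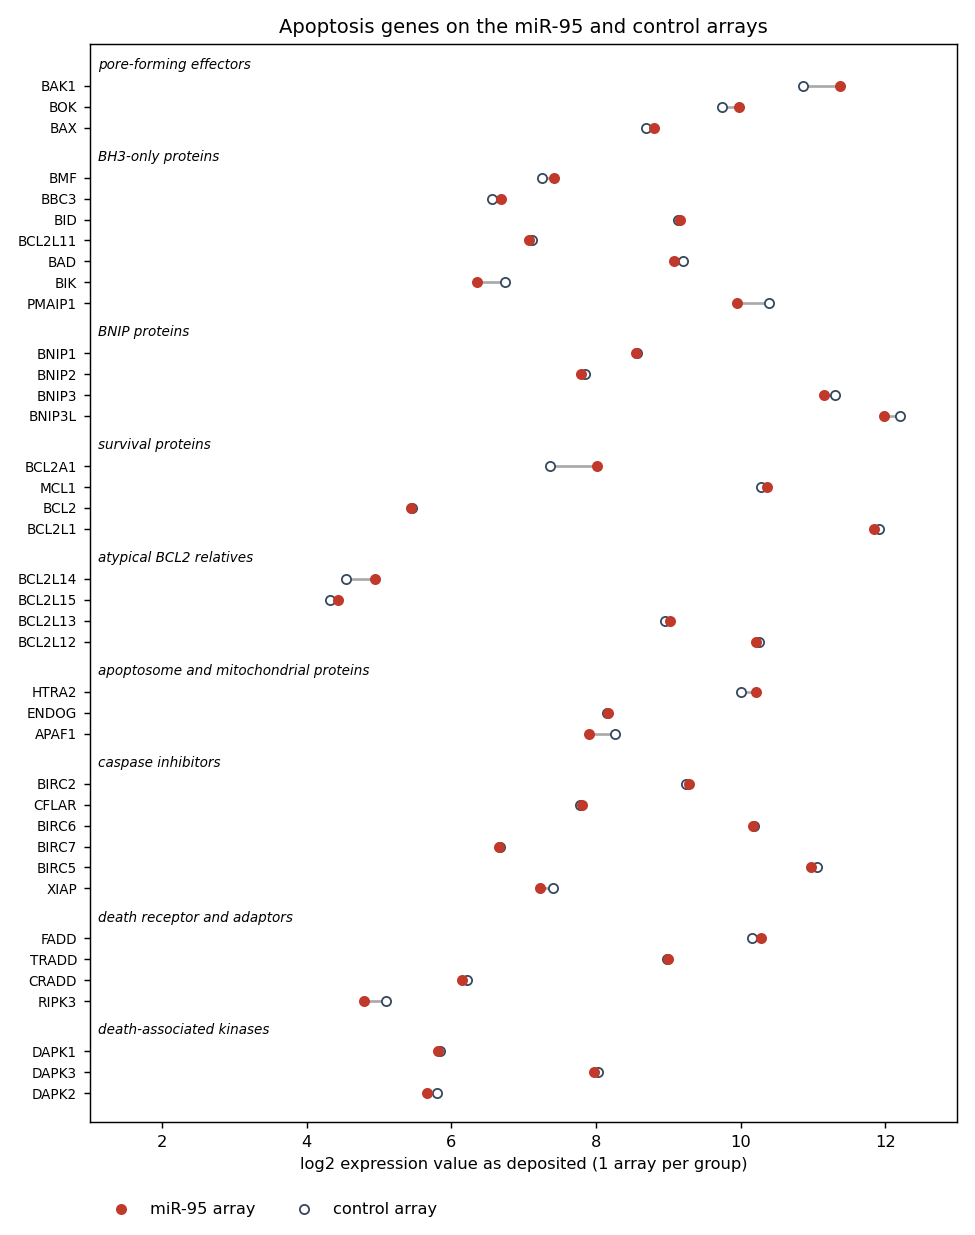
Values of the 38 measured apoptosis genes (rows, grouped by class) on the miR-95 array (filled) and the control array (open), in log2 units as deposited, with 1 array per group. Only points on the same row can be compared, since each gene is read by its own probe set; the longest connecting line is that of BCL2A1, at 8.01 on the miR-95 array against 7.37 on the control array.

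The pore-forming effectors, which carry out the step that commits a cell to die, were all higher on the miR-95 array. Of these 3, 1 passed the 25% limit, beside 3.92% of all named genes higher past it. Over all named genes 56.9% of differences were negative. BAK1, which sits on the outer mitochondrial membrane and opens pores in it, read 11.38 in the miR-95 line and 10.87 in the control line. That is 1.39-fold higher, at rank 131 from the highest of the 13864 differences. BOK, a relative of BAX and BAK1 that can form pores without them, read 9.98 in the miR-95 line and 9.74 in the control line, a difference of 0.205. BAX, which moves from the cytosol to mitochondria on activation, read 8.81 in the miR-95 line and 8.69 in the control line, a difference of 0.085. The BAX difference is smaller than the probe-set SD of 0.132, that of BOK exceeds it, and that of BAK1 is more than 3 times as large. That SD holds no variation between cultures, so these comparisons do not say whether the lines differ. RefSeq lists the pseudogenes BAK1P1 and BAK1P2, and whether they add to the signal of BAK1 was not tested. The class median was 0.205, the highest of the 9 classes with a measured member.

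Among the BH3-only proteins, the sensors upstream of the pores, 7 of 8 were measured. Of these 2, PMAIP1 and BIK, were lower past the 25% limit and 0 were higher. Of all named genes 6.32% were lower past it and 3.92% higher. By sign 5 of the 7 were negative, beside 56.9% of all named genes, and BID changes sign with the centring. The class median was -0.075. PMAIP1 (NOXA), which binds MCL1 and BCL2A1 and neutralises them, read 9.95 in the miR-95 line and 10.40 in the control line. It was 1.40-fold lower, the lowest of all measured members, at rank 228 from the lowest of all genes. BIK, a BH3-only protein that resides largely at the endoplasmic reticulum, was dim at 6.35 in the miR-95 line and 6.74 in the control line, and 1.34-fold lower.

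BAD, which is held inactive by phosphorylation downstream of survival kinases, read 9.08 in the miR-95 line and 9.21 in the control line, a difference of -0.165. BCL2L11 (BIM), a direct activator of BAX and BAK1, was dim and read 7.08 in the miR-95 line and 7.12 in the control line. BID, which caspase 8 cleaves to link the death receptors to mitochondria, differed by -0.005, with 9.17 in the miR-95 line and 9.14 in the control line. The difference of BID lies within the probe-set SD of 0.132 and that of BAD just outside it. That of BCL2L11, -0.075, is also smaller, but this SD comes from genes that were not dim and need not hold for BCL2L11. On the positive side were dim genes, BMF at 7.42 in the miR-95 line and 7.25 in the control line, and BBC3 (PUMA), a p53 target, at 6.69 in the miR-95 line and 6.57 in the control line. BMF is a BH3-only protein released when cells lose contact with their matrix. HRK carried no named probe set.

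The survival proteins went both ways, with 2 positive and 2 negative members of 4 measured and a median of -0.005. BCL2A1 (BFL-1), an NF-kB-induced survival protein, read 8.01 in the miR-95 line and 7.37 in the control line. At 1.52-fold higher it was the member furthest from 0, at rank 49 from the highest of all genes, and the 1 member past 1.5-fold. With an offset of 16 added on the linear scale its difference was 0.562, and 0 members were then past 1.5-fold. MCL1, a short-lived survival protein and the main partner of PMAIP1, read 10.36 in the miR-95 line and 10.28 in the control line, a difference of 0.045. BCL2L1, which encodes BCL-XL and, by splicing, the death-promoting BCL-XS, read 11.85 in the miR-95 line and 11.92 in the control line, a difference of -0.105. BCL2, the founding member, was dim at 5.44 in the miR-95 line and 5.46 in the control line. A single value per gene does not separate splice forms. BCL2L2 carried no named probe set.

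The regions around the annotated starts of BCL2A1 and PMAIP1 are printed because these members had the largest difference in each direction. Each window holds 250 bases before and 50 after the start (RefSeq, GRCh38.p14), written in the direction of transcription, with matches to 6 short motifs in capitals on either strand. BCL2A1 lies at chr15:79971147-79971446 on the minus strand and PMAIP1 at chr18:59899746-59900045 on the plus strand.
BCL2A1: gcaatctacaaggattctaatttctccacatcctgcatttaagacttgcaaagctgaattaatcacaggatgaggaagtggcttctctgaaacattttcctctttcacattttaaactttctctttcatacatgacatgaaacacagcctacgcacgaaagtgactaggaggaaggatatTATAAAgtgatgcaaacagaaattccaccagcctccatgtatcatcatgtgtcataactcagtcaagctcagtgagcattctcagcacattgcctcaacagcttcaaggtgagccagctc
PMAIP1: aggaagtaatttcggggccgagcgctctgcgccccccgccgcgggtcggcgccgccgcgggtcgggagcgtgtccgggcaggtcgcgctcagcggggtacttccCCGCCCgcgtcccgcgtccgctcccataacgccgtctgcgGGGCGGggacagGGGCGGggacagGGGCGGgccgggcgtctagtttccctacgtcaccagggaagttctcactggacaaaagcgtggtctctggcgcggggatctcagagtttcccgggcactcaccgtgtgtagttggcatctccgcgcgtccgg
The motifs were the TATA box (TATAAA), the CCAAT box (CCAAT), the GC box (GGGCGG), the cAMP response element (TGACGTCA), the AP-1 site (TGANTCA) and the HIF core (ACGTG). The BCL2A1 window, of 41% G and C, held a TATA box that begins 70 bases before the start, and none of the other 5. PMAIP1, of 71.3% G and C, held 4 GC boxes that begin between 146 and 82 bases before the start and none of the other 5. Of all 35116 windows of this length in the RefSeq table, 11.5% held the TATA box, 34.6% the CCAAT box, 45.0% the GC box, 1.85% the cAMP response element, 7.71% the AP-1 site and 21.4% the HIF core. Among 55 windows of 32 measured members 3.64% held the TATA box, 25.5% the CCAAT box, 61.8% the GC box, 3.64% the cAMP response element, 10.9% the AP-1 site and 23.6% the HIF core. A match is a description of these letters and not a site in use.

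The 4 atypical relatives of BCL2 had a median of 0.05. BCL2L14 (BCL-G) was dim at 4.95 in the miR-95 line and 4.54 in the control line, and 1.30-fold higher. With an offset of 16 its difference was 0.225, short of the 25% limit, which leaves 2 members higher past it. BCL2L15, likewise dim, differed by 0.075. BCL2L13, a mitochondrial protein that also acts in mitophagy, differed by 0.025 (9.02 in the miR-95 line, 8.96 in the control line). BCL2L12 differed by -0.075 (10.21 in the miR-95 line, 10.25 in the control line). Of this class, then, BCL2L14 alone passed the 25% limit, in the dimmest brightness bin, where 15.5% of all genes did so in one direction or the other.

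All 4 BNIP genes had small negative differences, beside 56.9% of all named genes with a negative difference. Their median was -0.14. BNIP3L (NIX), a mitophagy receptor induced by hypoxia, read 11.98 in the miR-95 line and 12.20 in the control line, 1.19-fold lower. Its relative BNIP3, also a hypoxia-induced mitophagy receptor, read 11.15 in the miR-95 line and 11.30 in the control line, 1.14-fold lower. RefSeq lists many pseudogenes of BNIP3, and whether they add to its signal was not tested. BNIP2 (7.79 in the miR-95 line, 7.85 in the control line) and BNIP1 (8.55 in the miR-95 line, 8.57 in the control line) lay closer to 0. BNIP1 acts in membrane fusion at the endoplasmic reticulum.

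**Figure D2:**
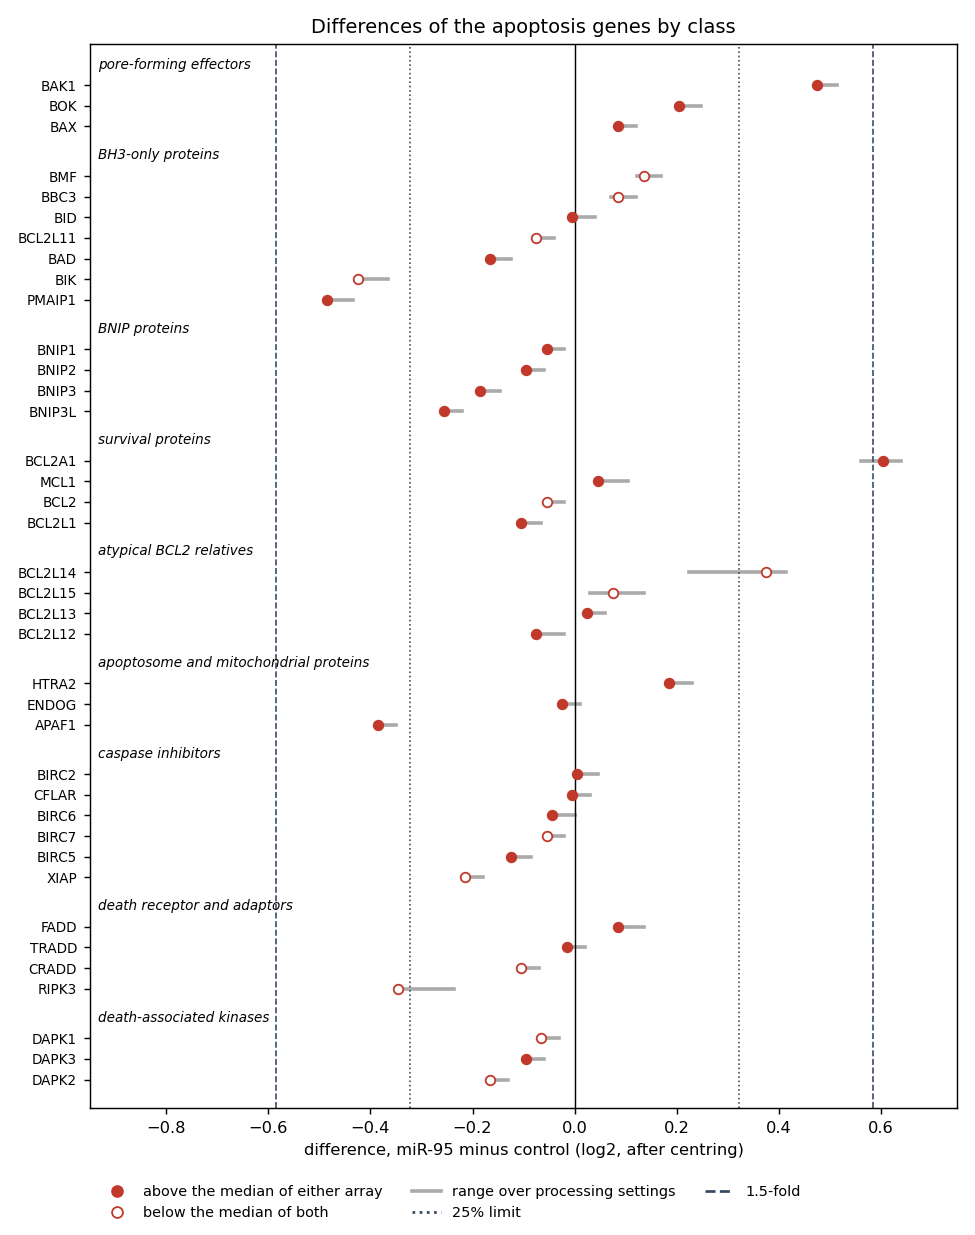
Difference between the arrays (miR-95 minus control, log2 after centring) for each measured apoptosis gene, by class, with dotted lines at the 25% limit and dashed lines at 1.5-fold; open points are dim genes and grey bars span the processing settings tried. The 3 pore-forming effectors lie right of 0 and the 4 BNIP genes left of it, and BCL2A1 is the only gene beyond a dashed line. Of all named genes, which are not drawn, 56.9% had a negative difference.

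Downstream of the pores, the scaffold of the apoptosome was lower. APAF1, which binds cytochrome c and recruits caspase 9, read 7.91 in the miR-95 line and 8.26 in the control line. It was 1.31-fold lower, at rank 502 from the lowest of all genes. HTRA2, a mitochondrial serine protease that antagonises inhibitor of apoptosis proteins once released, went the other way, at 10.22 in the miR-95 line and 10.00 in the control line, a difference of 0.185. ENDOG, the mitochondrial endonuclease G, read 8.17 in the miR-95 line and 8.16 in the control line. Cytochrome c (CYCS), DIABLO and AIFM1 carried no named probe set.

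The listed caspases could not be described. Of these 9 (CASP1, CASP2, CASP4, CASP5, CASP6, CASP8, CASP9, CASP10 and CASP14) 0 carried a named probe set. The same holds for DFFA and DFFB, the inhibitor and the nuclease that fragments DNA. Among the measured members, only inputs and brakes of the apoptotic caspase cascade were read, and some cleaved substrates are described with the further genes below.

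The brakes differed little, as did most named genes. All 6 measured caspase inhibitors lay within the 25% limit, as did 12445 of all 13864 named genes. Their differences ran from -0.215 to 0.005, with a median of -0.05. XIAP, the most direct inhibitor of caspases in this family, was dim at 7.23 in the miR-95 line and 7.41 in the control line, 1.16-fold lower. BIRC5 (survivin), which also serves the chromosomal passenger complex in mitosis, read 10.97 in the miR-95 line and 11.06 in the control line, a difference of -0.125. BIRC2 (cIAP1), a ubiquitin ligase of TNF signalling, differed by 0.005 (9.29 in the miR-95 line, 9.25 in the control line), and BIRC6, a very large ubiquitin-conjugating enzyme, by -0.045 (10.17 in the miR-95 line, 10.18 in the control line). CFLAR (c-FLIP), which blocks caspase 8 at death receptors, read 7.81 in the miR-95 line and 7.78 in the control line, a difference of -0.005. BIRC7 (livin) was dim at 6.66 in the miR-95 line and 6.68 in the control line. BIRC3 was not measured.

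On the death receptor route FADD, the adaptor that brings caspase 8 to FAS, read 10.28 in the miR-95 line and 10.16 in the control line, a difference of 0.085. TRADD, the adaptor of TNF receptor 1, read 9.0 in the miR-95 line and 8.98 in the control line. CRADD, which links a death domain to caspase 2, was dim at 6.15 in the miR-95 line and 6.22 in the control line. RIPK3, the kinase that triggers necroptosis, was also dim, at 4.79 in the miR-95 line and 5.10 in the control line, and 1.27-fold lower after centring. With the values as deposited its difference of -0.31 falls short of the 25% limit. FAS and RIPK1 carried no named probe set. The 3 death-associated kinases are serine and threonine kinases of death and autophagy. Their differences were -0.065 (DAPK1), -0.165 (DAPK2) and -0.095 (DAPK3), and DAPK1 and DAPK2 were dim. All lay within the 25% limit, as did 12445 of all 13864 named genes. Over all named genes 56.9% of differences were negative.

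**Figure D3:**
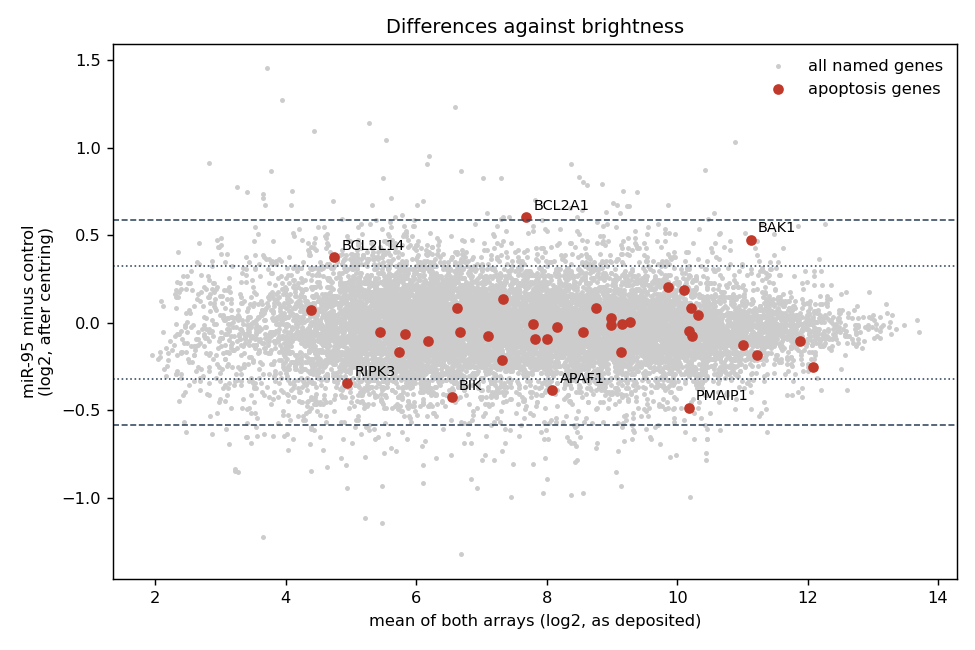
Difference between the arrays (miR-95 minus control, log2 after centring) against the mean log2 value of both arrays for all 13864 named genes (grey) and the 38 apoptosis genes (red), with dotted lines at the 25% limit and dashed lines at 1.5-fold. BAK1 and PMAIP1 lie outside the dotted lines among bright genes. BCL2L14 and RIPK3 lie in the dimmest brightness bin, where the grey cloud is widest (robust SD 0.208). BIK, also dim, lies in the next bin (robust SD 0.163).

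The share of genes past the 25% limit fell with brightness. In the brightest of the 4 bins 7.31% of all named genes passed it in either direction, against 2 of the 13 members there, BAK1 and PMAIP1. In the dimmest bin 15.5% passed, against 2 of 6 members, BCL2L14 and RIPK3. The next dimmest bin held 1 of 7 members past the limit, BIK, against 9.36% of all named genes. For the next brightest it was 2 of 12 members, BCL2A1 and APAF1, against 8.72%. Genes with longer genomic spans tended to lower differences, with a Spearman's rho of -0.19 across the 38 members and -0.12 across all named genes, which are not independent replicates and share the same 2 arrays. The median span was 10.8 kb for the 13 members with positive differences and 30.1 kb for the 25 with negative ones. Over all named genes these medians were 17.5 kb and 27.1 kb.

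Further genes of cell death were read from 6 lists of 112 genes, of which 63 were measured and 48 were not dim. Higher past the 25% limit was 1 of the 63 (1.59%, against 3.92% of all named genes), lower were 5 (7.94%, against 6.32%), and 0 passed 1.5-fold in either direction. Their median of -0.055 equals that of the 38 members.

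Of 32 other regulators of BCL2 proteins and caspases, 19 were measured. BAG3, a co-chaperone that stabilises survival proteins and is induced by heat shock factor, read 11.03 in the miR-95 line and 10.58 in the control line, a difference of 0.415. BAG2, which inhibits the ubiquitin ligase CHIP, was at the other end with 9.64 in the miR-95 line and 10.09 in the control line, a difference of -0.485. The BAG co-chaperones therefore spread to both sides, with BAG1 at -0.205, BAG4 at 0.115 and BAG5 at -0.055. RASSF5, a RAS effector of the Hippo pathway, differed by -0.345 (8.60 in the miR-95 line, 8.91 in the control line), and PDCD4, an inhibitor of translation initiation, by 0.245 (9.17 in the miR-95 line, 8.89 in the control line).

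Among 21 genes of death ligands, receptors and their partners 8 were measured, and the genes of the TRAIL receptors were not among them. CASP8AP2 (FLASH), a caspase 8 partner that is also needed for histone messenger RNA processing, read 8.15 in the miR-95 line and 8.56 in the control line, a difference of -0.445. FAF1, which binds FAS, differed by -0.215. EDA2R, a receptor of the TNF receptor family, differed by 0.205, and PEA15, a death effector domain protein that binds FADD, by 0.165.

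Of 9 further genes listed under necroptosis 5 were measured. Of these 4 were positive, with a list median of 0.185, though 0 passed the 25% limit. Over all named genes 56.9% of differences were negative. RIPK3, counted with the members and not in this list, was dim and differed by -0.345, so the median does not cover it. RIPK2, listed here although it is a kinase of NOD receptor signalling, read 11.30 in the miR-95 line and 11.04 in the control line. Its difference of 0.225 was the highest of the 5 and counts toward the list median. CYLD, a deubiquitinase of RIPK1, differed by 0.205 and TICAM1 (TRIF), an adaptor of Toll-like receptor 3, by 0.185. MLKL, the protein that RIPK3 phosphorylates to rupture the membrane, read 9.32 in the miR-95 line and 9.41 in the control line, a difference of -0.125.

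Among 18 inflammasome and pyroptosis genes 7 were measured and 2 were not dim. IL18, a cytokine matured by caspase 1, read 8.54 in the miR-95 line and 8.99 in the control line, a difference of -0.485, and GSDMD, the pore-forming gasdermin D, differed by 0.055. CASP12, the 1 caspase gene with a named probe set in any list used here, was dim at 3.87 in the miR-95 line and 3.93 in the control line, a difference of -0.095.

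The mitochondrial list was the best covered, with 17 of 20 genes measured and a median of -0.055. PPIF (cyclophilin D), a regulator of the permeability transition pore, read 12.43 in the miR-95 line and 12.78 in the control line, a difference of -0.385. DNM1L (DRP1), which divides mitochondria, differed by -0.245. At the other end VDAC1 and VDAC3, channels of the outer membrane, differed by 0.095 and 0.055.

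Of 12 executioner caspases and cleaved substrates 7 were measured, all of them substrates. LMNB1, lamin B1 of the nuclear envelope, had the lowest difference at -0.225 and GSN, the actin-severing gelsolin, followed at -0.135. PARP1, a DNA repair enzyme that caspases cleave, read 11.60 in the miR-95 line and 11.53 in the control line, a difference of 0.035, the highest among those not dim.

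**Figure D4:**
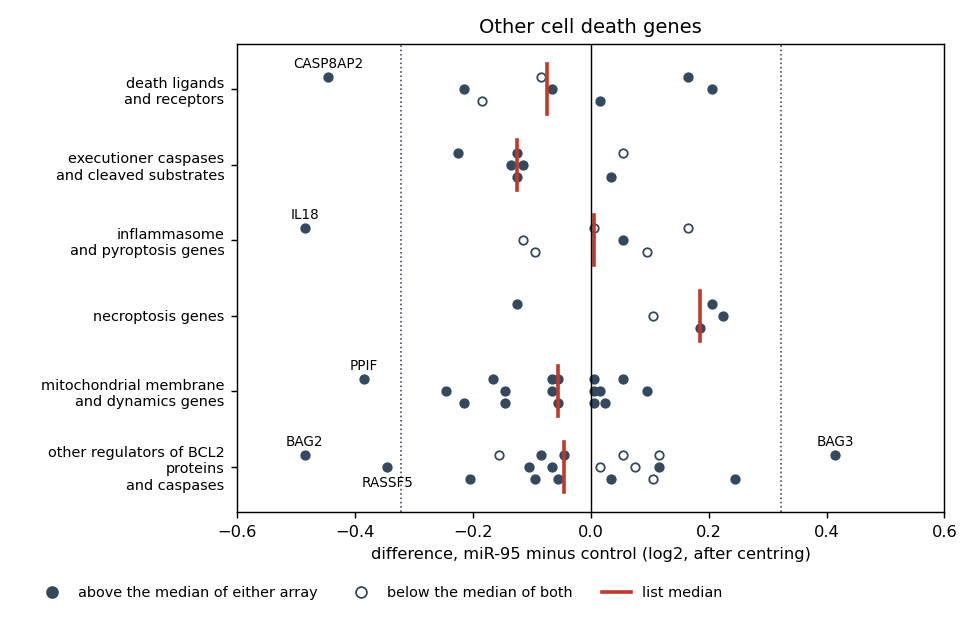
Difference between the arrays (miR-95 minus control, log2 after centring) of 63 other cell death genes in 6 lists, with filled points for genes that were not dim, open points for dim genes, red bars at list medians and dotted lines at the 25% limit. CASP8AP2, IL18, PPIF, BAG2 and RASSF5 lie beyond the left line and BAG3 beyond the right one.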

How the data were processed

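The deposited table holds log2 expression values of 23641 probe sets on 2 arrays, rounded to 2 decimals; the log2 scale was read from the values, which run from 1.79 to 13.84. The authors used Affymetrix Expression Console 1.2, per the submitters' processing notes. The labels do not state the summarisation, scaling, build or filters. Apart from the extreme values the sorted columns lay within 0.04 of each other, and a change common to all transcripts would be hidden by such scaling.

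Platform annotation named 14088 probe sets (59.6%), giving 13864 genes; all identifiers matched RefSeq (GRCh38.p14), used for names and spans. Probe sets of a gene were averaged, arrays were median-centred, and no filter on dim genes was applied (Python 3.11.15, pandas 2.3.3, numpy 2.4.6). With 1 array per group no test was made. The number of arrays limits the precision. Calls were counted at a 25% excess of one array over the other and at 1.5-fold. Named with values were members past 25% and the 2 most different of each class each way. Of each list, the 2 most different genes each way that were not dim were named. Others were named after their values were seen, among them CASP12, BAG1, BAG4, BAG5, TICAM1 and the remaining members. Members and lists were chosen with earlier results of these data known. The 8 alternatives were no centring, quantile or loess normalization (statsmodels 0.14.6, span 0.4), 3 filters on dim genes, the brightest probe set, and an offset of 16. The steps were tested on simulated data.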

Additional observations from a re-analysis of the deposited data

How the results depend on the processing

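Of the 8 alternatives, the 3 filters on dim genes cannot change a member's own difference, and the brightest probe set shifts every member alike through the centring, since each has 1 probe set. No centring is also a common shift, of 0.035. Only quantile normalization, loess and the offset can move members unequally. BAK1, PMAIP1, APAF1 and BCL2A1 stayed past the 25% limit in these 3 and after the common shifts. Their ranges were 0.474 to 0.515, -0.485 to -0.435, -0.385 to -0.350 and 0.562 to 0.640. BIK, which is dim, stayed past it in 6 of the 6 alternatives that kept it, from -0.425 to -0.365. With an offset of 16 on the linear scale 0 members were at least 1.5-fold higher, since BCL2A1 then differed by 0.562, and BCL2L14 differed by 0.225, short of the 25% limit, so that 2 members in place of 3 were higher past it. With the filters at the array median and at the median of the means, 2 members in place of 4 were lower past the 25% limit, because BIK and RIPK3 are dim and left out. RIPK3 passed the limit in 1 of the 5 alternatives that kept it. Centring sets the signs of small differences: 25 members were negative after median centring, 21 as deposited and after quantile normalization, and 22 after loess. The medians of the survival proteins, atypical relatives, adaptors and apoptosome genes crossed 0 in at least 1 alternative, and those of the other 5 classes in 0. No paired analysis was possible because each group holds 1 array. With 1 array per group, leaving out a replicate was not possible either.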
